A study of Mus musculus with 10 samples.

Results

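The genes described here encode subunits of the Polycomb repressive complexes. They were chosen by name as the 10 genes Ezh1, Ezh2, Eed, Suz12, Jarid2, Rbbp4, Rbbp7, Bmi1, Rnf2 and Cbx7, and all 10 were found among the 55809 gene rows of the count files. Counts came from bulk RNA-seq of regulatory T cells (Treg cells) isolated from spleen and lymph nodes. In both groups the endogenous Foxp3 gene carries an auxin-inducible degron (AID), so that the cells make an AID-Foxp3 fusion protein, and both groups were given the auxin analog 5-ph-IAA over 14 days. The control group, Foxp3-AID ROSA26-WT (called R26-WT, 4 libraries), has an unmodified ROSA26 locus, and the Foxp3-AID ROSA26-TIR1(F74G) group (called R26-TIR1(F74G), 6 libraries) carries a mutated plant E3 ligase there that recognizes the drug and marks the fusion protein for degradation. The comparison thus asks what changes in Treg cells when Foxp3 protein is lost in the mouse. The libraries are male, and Foxp3 lies on the X chromosome, so all Treg cells of these mice carry the degron. The paper reports mildly increased inflammation in such males after Foxp3 degradation. Effects of altered surroundings therefore cannot be told apart from those of Foxp3 loss within the cells.

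The labels give no age. TIR1 in this model stands behind a loxP-flanked stop and is released by the Cre that the Foxp3 allele itself encodes, so it is made only where the Foxp3 locus has been active. As the general gate for these Treg cells the methods give CD4, TCRβ and the ZsGreen reporter of the Foxp3 allele, with mCherry in addition for TIR1 cells, without naming the present libraries. Where that gate was used it differed together with genotype, and its part cannot be told apart from that of genotype. Nothing in the labels says whether each library came from a separate mouse, and the p-values therefore measure the spread between these libraries.

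Polycomb proteins keep genes silent through chromatin. Polycomb repressive complex 2 (PRC2) methylates a lysine in the tail of histone H3, and Polycomb repressive complex 1 (PRC1) binds that mark, ubiquitinates histone H2A and compacts the chromatin. In T cells both complexes hold back the genes of other lineages, and Ezh2, the catalytic subunit of PRC2 in dividing cells, is known to be needed by activated Treg cells.

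Libraries held between 24158699 and 54795718 counted read pairs, and every one had the Xist and Ddx3y counts of a male mouse. All 8 Treg markers examined (Foxp3, Il2ra, Ctla4, Ikzf2, Izumo1r, Tnfrsf18, Cd3e and Cd4) passed the count minimum, and DESeq2 called none of them (3 had an unadjusted p under 0.05, and edgeR and limma voom called 0), although their summed level was 3497 to 3639 CPM (counts per 1000000 counted pairs) in R26-WT and 3198 to 3438 CPM in R26-TIR1(F74G). Markers of other cells summed to 18.9 to 31.5 CPM in R26-WT and 16.1 to 27.6 CPM in R26-TIR1(F74G) for B cells, and to 27.6 to 42.4 CPM and 25.6 to 32.7 CPM for CD8 and NK cells. Myeloid and erythroid markers stayed at or below 1.01 CPM in every library, and Cd14, S100a9 and Ncr1 had no count at all. No marker of these 4 lists was called, and their part in the results below was not tested.

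Of the 10 genes, only Ezh2 passed the test. Ezh2 was 1.28-fold higher in R26-TIR1(F74G) than in R26-WT Treg cells (log2 fold change 0.36, 95% interval 0.21 to 0.51), and its normalized counts did not overlap between the groups. The other 9 genes, which include its paralog Ezh1, its obligate partners Eed and Suz12, and the 3 PRC1 subunits, overlapped between the groups, with DESeq2 adjusted p between 0.98 and 1.00. All 10 genes passed the minimum mean count of 10, in a table where 16363 genes did. DESeq2 called 1.4% of those tested genes higher in R26-TIR1(F74G) and 0.336% lower, 1.74% in all, so 1 call among 10 genes is to be read against a background of this size. Group ranges did not overlap for 2.37% of the tested genes. The median log2 fold change of the 10 genes was -0.02, beside 0.00 over all tested genes. In RNA from a bulk population, fewer cells of a type and less RNA per cell cannot be told apart.

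**Figure D1:**
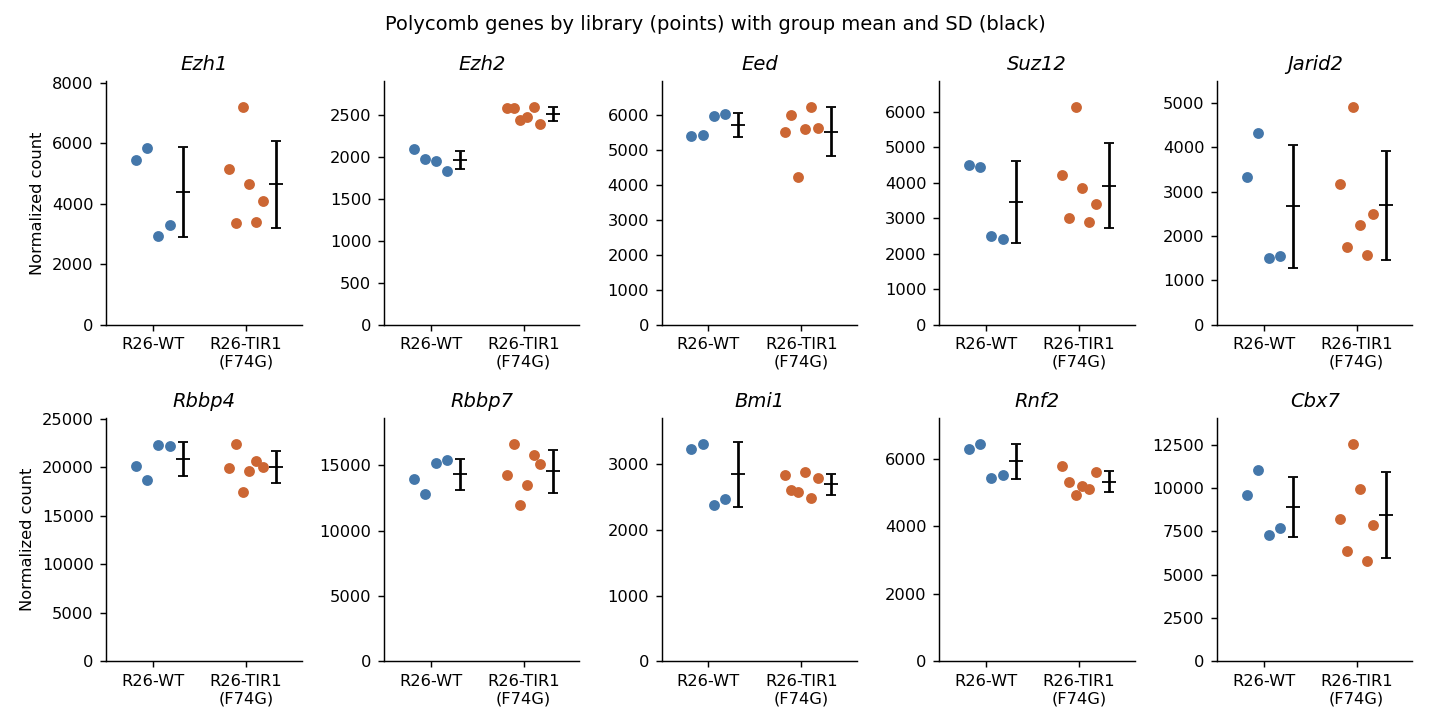
Normalized count (vertical axes, from 0) of each Polycomb gene in the 4 R26-WT and 6 R26-TIR1(F74G) libraries, 1 point per library, with the group mean and SD in black. Ezh2 is the gene whose groups separate, at 1836 to 2091 against 2395 to 2593 normalized counts, whereas the points of Ezh1, Suz12, Jarid2 and Cbx7 are spread widely within both groups.

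Ezh2 and Ezh1 are the alternative catalytic subunits of PRC2, the methyltransferases proper. Ezh2 lies on chromosome 6 (47507073 to 47572275, minus strand, GRCm39) and is known as the form of dividing cells, and Ezh1 on chromosome 11 (101081941 to 101117289, minus strand) as the form of resting cells. The promoters of this pair are shown here because Ezh2 was the gene called and Ezh1 is its paralog, and that of Suz12 because it held the other match to the E2F motif described next. The 300-base windows of RefSeq (taken from the GRCm38.p6 table, and each found at 1 place in the GRCm39 genome) hold 250 bases before the annotated start of transcription and 50 from it on. Capitals mark exact matches to the E2F motif, searched on both strands as TTTGGCGC, TTTCGCGC, TTTCCCGC or TTTGCCGC. E2F proteins are the transcription factors that drive genes of DNA replication. The Ezh2 window is chr6:47571915-47572214, the Suz12 window chr11:79883682-79883981 and the Ezh1 window chr11:101117240-101117539, each written 5′ to 3′ on the strand of its gene.
Ezh2: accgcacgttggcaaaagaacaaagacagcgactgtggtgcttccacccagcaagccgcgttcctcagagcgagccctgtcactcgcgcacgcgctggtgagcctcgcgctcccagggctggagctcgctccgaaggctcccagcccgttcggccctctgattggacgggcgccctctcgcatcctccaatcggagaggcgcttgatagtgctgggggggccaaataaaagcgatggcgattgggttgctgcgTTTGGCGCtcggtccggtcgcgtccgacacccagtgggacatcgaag
Suz12: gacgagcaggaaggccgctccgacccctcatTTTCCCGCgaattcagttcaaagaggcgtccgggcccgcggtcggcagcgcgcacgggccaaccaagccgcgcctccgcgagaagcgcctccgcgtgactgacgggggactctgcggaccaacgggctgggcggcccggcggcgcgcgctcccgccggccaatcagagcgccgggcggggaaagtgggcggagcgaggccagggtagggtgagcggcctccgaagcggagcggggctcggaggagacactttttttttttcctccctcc
Ezh1: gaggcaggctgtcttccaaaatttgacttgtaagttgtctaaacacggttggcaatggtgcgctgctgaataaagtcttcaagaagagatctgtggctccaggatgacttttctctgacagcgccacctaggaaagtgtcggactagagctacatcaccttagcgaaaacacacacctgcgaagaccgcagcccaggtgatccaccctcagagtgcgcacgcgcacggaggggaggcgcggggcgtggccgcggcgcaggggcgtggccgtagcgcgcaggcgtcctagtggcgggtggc

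Ezh2 had 1 E2F match, TTTGGCGC on the strand of the gene, which begins at base 254 of the window, just after the start of transcription in RefSeq. In the annotation used for the counts Ezh2 begins farther upstream, at 47572275, so that its window lies within the gene. The windows of Jarid2 and Cbx7 likewise lie within their genes in that annotation. The same letters occur on either strand in 0.514% of the 32851 promoters of that table, and any of the 4 E2F versions in 2.27%. Suz12 was the other of the 10 genes with a match, TTTCCCGC at base 32, a version found in 1.07% of promoters. The CHR motif TTTGAA, an element of genes expressed late in the cell cycle, occurred in the windows of Eed, Suz12 and Cbx7 and in 17.9% of all promoters, and did not overlap an E2F match. Ezh1, Jarid2 (for which the table has a second window), Rbbp4, Rbbp7, Bmi1 and Rnf2 held neither motif. These matches describe letters in a window and were not tested for binding.

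Ezh2 had 2091, 1971, 1948 and 1836 normalized counts in R26-WT replicates 1 to 4. In the 6 R26-TIR1(F74G) libraries it ranged from 2395 to 2593 with a median of 2530. The lowest library of the second group thus stood above the highest of the first. The means of these groups were 1962 ± 105 (SD, n = 4) and 2512 ± 84.5 (SD, n = 6). On the log2 scale Ezh2 rose by 0.36 with an SE of 0.08, at an adjusted p of 0.000647 with DESeq2. Ezh2 ranked 93rd among the tested genes by p, and of the 229 genes called higher only 3 had a smaller fold. This small change passed the test with very even libraries, since 3.1% of tested genes varied less than Ezh2 within R26-WT (SD of log2 CPM 0.06, beside a median of 0.31 over all tested genes). The call held with each of the 10 libraries left out (log2 fold change 0.33 to 0.39, DESeq2 adjusted p 0.00191 to 0.0203). It was lost with the edgeR quasi-likelihood test (log2 fold change 0.35, adjusted p = 0.123), which called 0.373% of the tested genes, and with limma voom (0.36, adjusted p = 0.0844), which called 0.489%.

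Ezh1 had 5441, 5853, 2937 and 3280 normalized counts in R26-WT replicates 1 to 4. Across the R26-TIR1(F74G) libraries the lowest, median and highest values were 3368, 4367 and 7190. The spread within each group, about 2-fold from lowest to highest (1.99 in R26-WT and 2.14 in R26-TIR1(F74G)), exceeded the difference between them. Its log2 fold change was 0.08 (95% interval -0.42 to 0.59), so a change of Ezh1 as large as that of Ezh2 lies within the interval. Because scaling factors cancel within a library, the ratio of the paralogs was also taken per kb of exon. The log2 ratio of Ezh2 to Ezh1 was -0.94 ± 0.46 in the 4 R26-WT libraries (SD) and -0.68 ± 0.44 in the 6 of R26-TIR1(F74G), which differ by 0.26 (two-sided exact permutation test over 210 assignments, p = 0.362, and 0.362 adjusted over 2 ratios). Per annotated exon length there was less Ezh2 than Ezh1 RNA in each of the 10 libraries, with a log2 ratio of at most -0.23. The length of the transcripts expressed was not measured, and the sign depends on it.

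The remaining core of PRC2 consists of Eed, which binds the methyl mark, Suz12, the scaffold, and the histone-binding proteins Rbbp4 and Rbbp7, which also serve in other chromatin complexes. Eed (chromosome 7, 89603862 to 89630191) had 5376, 5412, 5960 and 6018 normalized counts in the R26-WT replicates and a lowest, median and highest value of 4213, 5596 and 6213 in R26-TIR1(F74G). Its groups overlapped almost entirely, and the log2 fold change was -0.05 (95% interval -0.29 to 0.20). Suz12 (chromosome 11, 79883932 to 79924949) split R26-WT into a pair of libraries at 4483 and 4433 and a pair at 2502 and 2407, and ranged from 2892 over a median of 3619 to 6123 in R26-TIR1(F74G). Its log2 fold change of 0.18 had an interval from -0.32 to 0.68, which includes that of Ezh2.

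Rbbp4 (chromosome 4, 129200893 to 129229163) and Rbbp7 (chromosome X, 161543398 to 161562088) varied little between libraries. Rbbp4 had 20104, 18676, 22321 and 22237 normalized counts in R26-WT and 17431, 20006 and 22433 as the lowest, median and highest of R26-TIR1(F74G). Rbbp7 had 13934, 12827, 15173 and 15397, against 11991, 14661 and 16653. The log2 fold changes were -0.06 (95% interval -0.26 to 0.14) and 0.02 (-0.21 to 0.25), and the upper limits of both lie below the 0.36 of Ezh2. Within each library the log2 ratio of Rbbp4 to Rbbp7 per kb of exon came to -1.05 ± 0.01 in the 4 R26-WT libraries (SD) and to -1.12 ± 0.06 in the 6 of R26-TIR1(F74G). The difference of -0.07 gave p = 0.0714 in the two-sided exact permutation test (0.143 adjusted over 2 ratios), and p = 0.0476 without R26-TIR1(F74G) replicate 7 or without replicate 8. Some reads of these genes cannot be assigned with certainty: 8.94% of the Rbbp4 exon bases overlap Sync, 7.47% of those of Eed overlap E230029C05Rik and 5.98% of those of Rbbp7 overlap Txlng, in each case on the opposite strand, and the counting options name no strand.

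Jarid2 is an accessory subunit that helps bring PRC2 to chromatin. It lies on chromosome 13 (44882950 to 45075119) and varied most of the 10 genes, with 3332, 4313, 1494 and 1557 normalized counts in R26-WT and a lowest, median and highest value of 1572, 2376 and 4907 in R26-TIR1(F74G). The highest library held 3.28 times the lowest. Its log2 fold change of 0.01 carried an interval from -0.68 to 0.70, the widest of the set.

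PRC1 was represented by Rnf2, the main E3 ligase for H2A, Bmi1, a partner that stimulates the ligase, and Cbx7, a reader of the PRC2 mark. Rnf2 (chromosome 1, 151333755 to 151376706) had 6284, 6437, 5433 and 5526 normalized counts in R26-WT and 4929, 5253 and 5774 as lowest, median and highest of R26-TIR1(F74G), so R26-WT replicates 1 and 2 stood above every R26-TIR1(F74G) library and replicates 3 and 4 did not. Its log2 fold change was -0.15 (95% interval -0.34 to 0.03, DESeq2 adjusted p = 0.982). Bmi1 (chromosome 2, 18681829 to 18691440) showed the same division of R26-WT, with 3221 and 3302 against 2374 and 2461, while the R26-TIR1(F74G) libraries lay between 2481 and 2881 around a median of 2695. Cbx7 (chromosome 15, 79800008 to 79855320) had 9587, 11024, 7299 and 7699 in R26-WT and 5769, 8037 and 12558 as lowest, median and highest of R26-TIR1(F74G). The log2 fold changes of Bmi1 and Cbx7 were -0.08 (95% interval -0.33 to 0.17) and -0.07 (-0.51 to 0.36). A count is also less certain where transcripts share stretches of 50 bases with other genes. The shares were 24.2% for Rbbp4 (mostly with Sync), 13.8% for Bmi1 (mostly with Gm5946), 10.7% for Jarid2 (mostly with Dtnbp1), 8.2% for Eed and 8.0% for Ezh1. They lay between 0.159% and 4.68% for the other 5 genes, with 0.598% for Ezh2.

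On a scale meant for comparing genes, CPM per kb of exon, the 10 genes spanned more than an order of magnitude in R26-WT. The length is that of all annotated exon bases of a gene, which can differ from that of the transcripts expressed, so the order of genes is approximate. Rbbp7 stood highest at 113 ± 10.1 (SD, n = 4), followed by Rbbp4 at 54.5 ± 4.97, and the ranges of these 2 genes overlapped neither each other nor the gene below. Eed (34.0 ± 2.24), Rnf2 (32.8 ± 2.66) and Cbx7 (31.4 ± 5.88) formed a middle group whose neighbours overlapped. Bmi1 (16.3 ± 2.73), Suz12 (16.0 ± 5.28) and Ezh1 (13.4 ± 4.48) followed, again with overlap between neighbours. The lowest levels were those of Ezh2, at 6.72 ± 0.349, and Jarid2, at 6.28 ± 3.21, which overlapped. In R26-TIR1(F74G) Ezh2 was at 8.70 ± 0.302 (SD, n = 6), still below the lowest Ezh1 library of that group at 10.3.

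**Figure D2:**
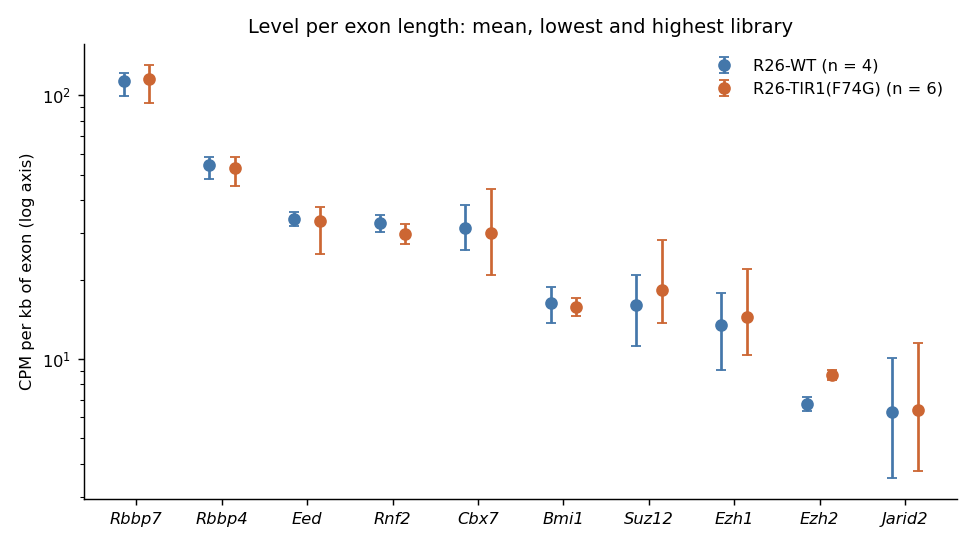
Level of each Polycomb gene per exon length (CPM per kb of exon, log axis), ordered by the R26-WT mean. Points are group means and bars run from the lowest to the highest library, from 113 for Rbbp7 down to 6.28 for Jarid2 in R26-WT. The bars of the groups meet for every gene but Ezh2.

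The division of the R26-WT libraries into replicates 1 and 2 on the one side and 3 and 4 on the other was not particular to Polycomb genes. As a measure of it, the average log2 CPM of the 4091 shortest tested genes (exon length up to 1724 bases) was subtracted from that of the 4086 longest (from 5808 bases), with the 10 genes left out. This long-minus-short difference ranged from 2.94 in R26-WT replicate 3 to 3.89 in R26-TIR1(F74G) replicate 7. It did not follow genotype, with means of 3.31 ± 0.38 (SD) for the 4 R26-WT libraries and 3.41 ± 0.28 for the 6 of R26-TIR1(F74G) (two-sided exact permutation p = 0.629). The labels describe RNA of varied integrity amplified from small amounts, but give no integrity value for a library, and the part of RNA quality in this difference was not tested.

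Most of the 10 genes followed it closely across the 10 libraries. The correlation was positive for Ezh1 (Pearson r = 0.99, Spearman rho = 0.99), Suz12 (r = 0.98, rho = 0.98) and Jarid2 (r = 0.98, rho = 0.99), each with a permutation p of r of 1e-05, the smallest that 100000 resamples can give, and 3.33e-05 adjusted over the 10 genes (adjusted permutation p of rho 5e-05 to 6.67e-05). Cbx7 had r = 0.85 and rho = 0.87 (permutation p = 0.00206 and 0.00217, adjusted 0.00294 and 0.00362). The correlation was negative for Rbbp4 (r = -0.95, rho = -0.94), Rbbp7 (r = -0.90, rho = -0.84) and Eed (r = -0.89, rho = -0.94), with adjusted permutation p of r from 0.0001 to 0.00075 and of rho from 0.000375 to 0.00563. Rbbp4, with 8744 bases of exon, is among the longest of the 10 genes, and its sign was opposite to those of Ezh1 (7440 bases) and Jarid2 (9715 bases). With the 2 libraries farthest from the median left out, R26-WT replicate 3 and R26-TIR1(F74G) replicate 7, the 7 coefficients kept their sign at absolute values of 0.83 to 0.97. An absolute r of 0.9 or more was found for 24.1% of all tested genes, so the relation was common in these libraries.

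Over all 10 libraries Ezh2 did not follow it (r = 0.15, rho = 0.02, permutation p = 0.671 and 0.972, adjusted 0.671 and 0.972), and neither did Rnf2 (r = 0.16, rho = 0.21, permutation p = 0.662 and 0.56, adjusted 0.671 and 0.622). Bmi1 lay between (r = 0.62, rho = 0.73, permutation p = 0.0564 and 0.0203, adjusted 0.0705 and 0.0254). Without the 2 farthest libraries, r was -0.18 for Ezh2, 0.71 for Rnf2 and 0.95 for Bmi1, so the low values of Rnf2 and Bmi1 over all 10 libraries depend on those 2. Since the Ezh2 levels of the genotypes do not overlap, r was also taken within the 6 R26-TIR1(F74G) libraries, where it was -0.67 for Ezh2, -0.28 for Rnf2 and 0.14 for Bmi1 (exact permutation p = 0.143, 0.601 and 0.8, adjusted over the 10 genes 0.179, 0.668 and 0.8). No r was taken within the 4 R26-WT libraries. In R26-WT replicates 1 to 4 Ezh2 was at 5.58, 5.50, 5.51 and 5.42 log2 CPM. Their long-minus-short differences were 3.54, 3.71, 2.94 and 3.03. For the other 7 genes the absolute r within the 6 R26-TIR1(F74G) libraries was 0.93 to 0.98, with adjusted exact permutation p from 0.00694 to 0.0179.

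**Figure D3:**
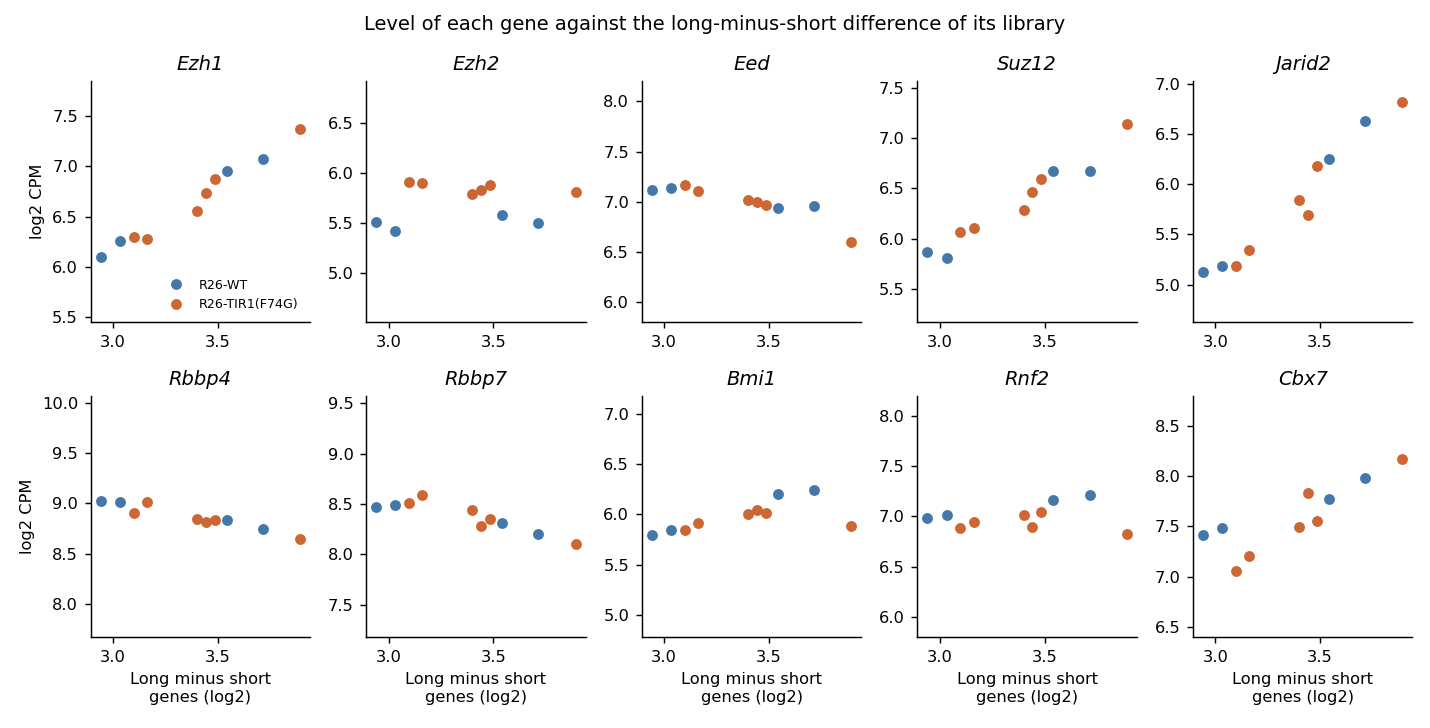
Level of each Polycomb gene (log2 CPM, every panel spanning the same range) against the long-minus-short difference of the library, 1 point per library. Ezh1, Suz12 and Jarid2 climb along a line that both genotypes share, Rbbp4, Rbbp7 and Eed descend, and for Ezh2 the R26-TIR1(F74G) points lie above the R26-WT points along the whole axis.

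When the long-minus-short difference was entered as a covariate in DESeq2, an alternative chosen after the data had been seen, the intervals of the 10 genes narrowed and Ezh2 remained the one called. Its log2 fold change was 0.35 (SE 0.06, adjusted p = 8.45e-08), and in edgeR with the same covariate 0.35 (adjusted p = 0.00263). Ezh1 was at -0.05 (95% interval -0.16 to 0.06), Suz12 at 0.05 (-0.09 to 0.19) and Eed at -0.01 (-0.13 to 0.11), so in this fit the upper limits of the partners of Ezh2 lay below the 0.24 that was its own lower limit. Jarid2 (-0.16), Rnf2 (-0.17) and Cbx7 (-0.21) had unadjusted p of 0.0387, 0.0123 and 0.0186 and DESeq2 adjusted p of 0.315, 0.156 and 0.205. Leaving out the 3 libraries with the highest values (R26-TIR1(F74G) replicate 7 and R26-WT replicates 2 and 1), which left 2 R26-WT libraries, gave calls for Ezh2 (log2 fold change 0.41, DESeq2 adjusted p = 0.00226) and Suz12 (0.49, adjusted p = 0.0236), and put Ezh1 at 0.40 (95% interval 0.06 to 0.74, adjusted p = 0.097) and Jarid2 at 0.56 (0.12 to 0.99, adjusted p = 0.0763), neither of them called, in a fit that called 1646 genes where the fit on all libraries called 284. With 1 surrogate variable in place of the covariate, an alternative chosen at the outset, Ezh2 was at 0.36. Ezh1 was then at 0.22 (95% interval -0.12 to 0.56), Suz12 at 0.31 (-0.02 to 0.65) and Eed at -0.10 (-0.27 to 0.07). In that fit the intervals of Ezh1 and Suz12 include the value of Ezh2.

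**Figure D4:**
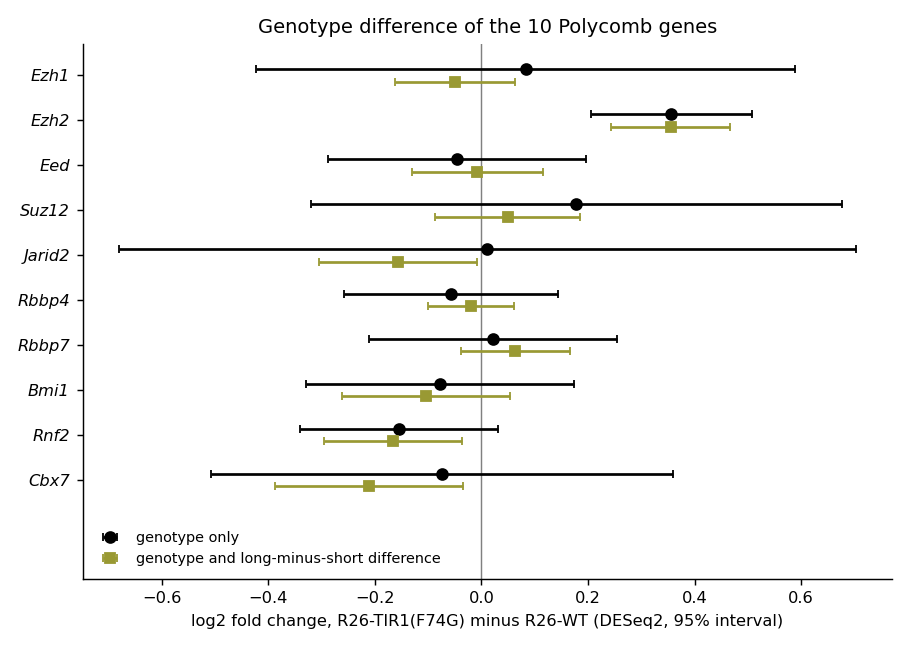
Log2 fold change of each Polycomb gene (horizontal axis, R26-TIR1(F74G) minus R26-WT, DESeq2) with its 95% interval, for genotype alone (circles) and with the long-minus-short difference as a covariate (squares). Ezh2 is at 0.36 and 0.35 and its intervals stay clear of 0 in both, whereas those of Ezh1, Suz12 and Jarid2 shrink around other values when the covariate is added.

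Ezh2 is known as a gene of dividing cells, and genes of cell division were higher in the R26-TIR1(F74G) libraries. Of 17 proliferation genes DESeq2 called 14 higher and 0 lower, with a median log2 fold change of 1.56, and of 18 DNA replication genes it called 9 higher and 0 lower, with a median of 0.51, where 1.4% of all tested genes were called higher. With edgeR 3 genes of each list were called, and with limma voom 5 of each. Both lists were chosen with earlier results of these data known, so their excess over that share is not an independent result. Mki67, a marker of cycling cells, had 58.6 to 214 normalized counts in R26-WT and 203 to 835 in R26-TIR1(F74G) (1.70 higher on the log2 scale, SE 0.40, DESeq2 adjusted p = 0.00253). Top2a, a topoisomerase of mitotic cells, rose by 1.61 (SE 0.35, adjusted p = 0.000942) and Mcm5, a subunit of the replicative helicase, by 0.66 (SE 0.13, adjusted p = 0.000176) on the log2 scale. With edgeR, Mki67 and Top2a had adjusted p of 0.176 and 0.128 and were not called, and Mcm5 had 0.043. Pcna, the sliding clamp of replication, did not pass (-0.14, SE 0.13, DESeq2 adjusted p = 1.00).

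Averaged per library, the log2 CPM of the 17 proliferation genes was 0.76 to 2.07 in the R26-WT libraries and 2.61 to 3.74 in the R26-TIR1(F74G) libraries, and that of the 18 replication genes 4.35 to 4.80 and 4.92 to 5.41. Neither range overlapped, so Ezh2 and these genes separate the genotypes alike, and whether Ezh2 differs apart from them was not tested. Within the 6 R26-TIR1(F74G) libraries no relation of Ezh2 with either average passed a test, of 2 computed. With the replication genes Pearson r was -0.71 and Spearman rho -0.77 (exact permutation p = 0.108 and 0.103, adjusted 0.217 and 0.206), and with the proliferation genes r was -0.24 and rho -0.09 (exact permutation p = 0.693 and 0.919, adjusted 0.693 and 0.919). Ezh2 spanned only 1.08-fold among these 6 libraries, which leaves little range for a relation, and no direction is read from these values. With the 2 libraries farthest from the median left out, r was -0.51 for replication (without replicates 7 and 9) and 0.52 for proliferation (without replicates 5 and 7), over 4 libraries. Replicate 7, with the highest average of both lists, had 2440 Ezh2 counts and also the highest long-minus-short difference, 3.89. No r was taken within R26-WT. Replicates 1 to 4 of that group had 2091, 1971, 1948 and 1836 Ezh2 counts. Their proliferation averages were 2.03, 2.07, 1.33 and 0.76, and their replication averages 4.53, 4.80, 4.42 and 4.35.

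**Figure D5:**
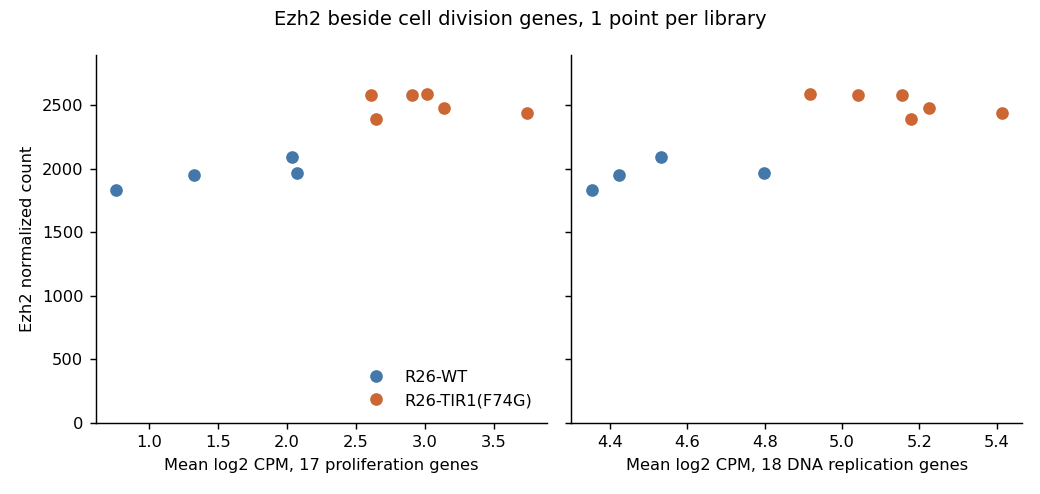
Ezh2 normalized count (vertical axis, from 0) against the mean log2 CPM of 17 proliferation genes (left) and 18 DNA replication genes (right), 1 point per library. The R26-TIR1(F74G) points lie to the right of and above all R26-WT points, at 2395 to 2593 Ezh2 counts and a proliferation mean of 2.61 to 3.74.

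Likeness to Ezh2 from library to library was described, with no test, by the correlation of log2 CPM once the mean of each group had been subtracted. Among 12443 genes with a mean normalized count of at least 50 the 5 highest correlations over the 10 libraries were those of Zfand5 (r = 0.90), Macrod2 (0.88), Nrros (0.88), Lcp2 (0.86) and Tmem62 (0.85). None of the 5 was called between the genotypes. They are the top of a search over many genes in few libraries, and nothing is read from their order. With another of the 10 Polycomb genes the largest absolute correlation of Ezh2 was 0.32, whereas that of each other gene was at least 0.82. Some of these pairs were positive, such as Ezh1 and Suz12 (0.99), and others negative, such as Ezh1 and Rbbp4 (-0.95) and Rbbp7 and Cbx7 (-0.96). An absolute r of 0.9 or more with the long-minus-short difference was found for 24.1% of all tested genes. The part of that difference in these pairs was not tested.

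Counts of calls in the other Polycomb lists are to be read against the 1.74% of all tested genes that DESeq2 called. Of 8 genes listed as accessory to PRC2, 7 passed the count minimum and DESeq2 called none (0 at an unadjusted p under 0.05, and 0 with edgeR or limma voom). Their median log2 fold change was -0.05, and Ezhip, a PRC2 inhibitor, had no count in any library. Phf19, which ties PRC2 to methylated histones, was at 0.35 (SE 0.36) with all libraries and at -0.03 without R26-TIR1(F74G) replicate 7, Aebp2, a cofactor, at 0.25 (SE 0.15) and Epop at 0.15 (SE 0.13). Among 9 tested genes that oppose Polycomb, none was called either (0 at an unadjusted p under 0.05, and 0 with edgeR or limma voom). The H3 demethylase Kdm6a was at 0.14 (SE 0.36), Mbd6, a partner of the H2A deubiquitinase, at 0.12 (SE 0.13) and the transcription factor Foxk1 at 0.09 (SE 0.09).

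Of 28 further PRC1 subunits, all tested, DESeq2 called 1, where 1.74% of all tested genes were called, and the median log2 fold change was 0.04. Auts2, which joins a variant form of PRC1, was called from few reads. It had 11.1, 13.8, 6.51 and 4.23 normalized counts in R26-WT and a lowest, median and highest value of 16.2, 22.8 and 50.4 in R26-TIR1(F74G). These groups did not overlap (1.58 on the log2 scale, SE 0.46, DESeq2 adjusted p = 0.0398), but the call was lost with edgeR (adjusted p = 0.214), with limma voom (0.127) and in 8 of 10 repeats that omitted 1 library each (adjusted p up to 0.261). Among the subunits with a mean normalized count of at least 50, Scml4, Cbx8 and Rybp had the largest absolute changes, at 0.18 (SE 0.26), -0.17 (SE 0.21) and -0.17 (SE 0.20).

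A list of 57 known Polycomb targets was silent for the greater part in both groups. Only 7 passed the count minimum, and of the other 50, among them most Hox genes and the cell cycle inhibitor Cdkn2a (0 to 5 counts in a library), none exceeded 17 counts in any library and 23 had no count at all. A count of 0 allows up to 3 counts, which is 0.124 CPM in the smallest library. Of the 7 tested targets 1 was called by DESeq2, against 1.74% of all tested genes, and 3 had an unadjusted p under 0.05. Eomes, a T-box factor of cytotoxic and memory T cells, had 135, 127, 105 and 68.5 normalized counts in R26-WT and a lowest, median and highest value of 209, 294 and 404 in R26-TIR1(F74G). It was higher in every R26-TIR1(F74G) library than in any R26-WT library (1.47 on the log2 scale, SE 0.23, DESeq2 adjusted p = 4.54e-08), and was also called by edgeR (adjusted p = 0.0161) and limma voom (0.0222). Cdkn1c, an inhibitor of cyclin-dependent kinases, was at -0.46 (SE 0.18, DESeq2 adjusted p = 0.304), and Tbx21, the T-box factor of type 1 helper cells, at 0.43 (SE 0.28, adjusted p = 1.00).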

How the data were processed

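Per the labels, polyA RNA was amplified to cDNA by PCR from small inputs, and no molecular identifiers are named, so counting error is a lower limit. Deposited were whole-number counts of read pairs for each gene name, made by the authors with featureCounts 2.1.1 per the file headers (GENCODE M30, mouse GRCm39, mapping quality of at least 30, no strand option). The labels list Bowtie2, whereas the methods of the study name STAR and another featureCounts version. A pair overlapping several genes was left out, which lowers counts of overlapping genes.

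All 16363 genes whose mean count reached 10 were tested with DESeq2 1.42.0 in R 4.3.3, as in the methods of the study (two-sided Wald test, genotype as the one term, Benjamini-Hochberg adjusted p under 0.05 over all tested genes). Intervals are 95% Wald intervals. To normalize, each count was divided by the DESeq2 size factor of its library, and log2 CPM used TMM scaling with a prior count of 2. DESeq2 and edgeR were also run on simulated counts with known changes, and the outcome is not given here. Alternatives were edgeR 4.0.16 (quasi-likelihood), limma 3.58.1 (voom with quality weights), TMM size factors, other count minimums, thinning to the smallest library, 1 surrogate variable (sva 3.50.0) and leaving out each library. Overlap of exons was computed from the coordinates in the count files, and shared 50-base stretches from GENCODE M39 transcripts.

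The 10 genes and all lists were chosen with earlier results of these data known. Besides the 10 genes the text names every called gene of the other Polycomb lists, the 3 genes of each with the largest absolute change among those with a mean normalized count of at least 50, Mki67, Top2a, Mcm5, Pcna, and the 5 genes most like Ezh2. Markers were named as lists, and Ezhip and Cdkn2a after their values were seen. Promoters came from RefSeq.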

Additional observations from a re-analysis of the deposited data

Results flagged for a closer look

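Values of the named genes, the cell division averages, the long-minus-short difference and the 2 ratios were searched for single libraries well outside the rest of their group. In 64 groups of values 3 values stood out, and chance gives about 1 in 20 groups. Eed was lowest in R26-TIR1(F74G) replicate 7 at 4213 normalized counts, where the other 5 libraries had 5492 to 6213, and without that library its log2 fold change was 0.02 instead of -0.05. Phf19 was highest in the same library at 194 normalized counts, with the others at 59.5 to 96.0, and without it its log2 fold change was -0.03 instead of 0.35. Replicate 7 also had the highest long-minus-short difference, 3.89, and its part in these values was not tested. Auts2 was highest in R26-TIR1(F74G) replicate 10 at 50.4 normalized counts, with the others at 16.2 to 25.7, and without that library the log2 fold change was 1.28 and no longer passed (DESeq2 adjusted p = 0.155).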

How the results depend on the processing

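Ezh2 was called in 15 of 17 alternatives chosen at the outset and in the 3 added after seeing the data. It kept its direction and lost the call with edgeR (0.35) and limma voom (0.36), and leaving out 1 library gave 0.33 to 0.39. The number of the 10 genes called was 0 with edgeR and limma voom, 2 without the 3 libraries of highest long-minus-short difference (Suz12 joined at 0.49) and 1 to 1 with a library left out. Over all genes 61 were called with edgeR, 80 with limma voom, 544 with 1 surrogate variable, 759 with the long-minus-short covariate in DESeq2, 1646 without those 3 libraries, and 187 to 346 with 1 library left out (187 without R26-WT replicate 4). The cause was not tested. In the other Polycomb lists the 2 calls became 1 with edgeR, limma voom, no count minimum, a mean count of at least 50, thinning and edgeR with the covariate, and 5 without the 3 libraries (Aebp2, Scml4, Kdm6a and Eomes among them), with 1 to 2 when a library was left out.

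Small values changed sign. With a library left out the ranges were -0.086 to 0.26 for Ezh1, -0.079 to 0.021 for Eed, -0.25 to 0.34 for Jarid2, -0.028 to 0.072 for Rbbp7, -0.15 to 0.0030 for Bmi1, -0.22 to 0.046 for Cbx7, -0.029 to 0.45 for Phf19, -0.34 to 0.046 for Cbx8 and -0.13 to 0.45 for Kdm6a. With the covariate in DESeq2 and edgeR, Ezh1 was at -0.049 and -0.052, Jarid2 at -0.16 and -0.16 and Kdm6a at -0.047 and -0.052. Rbbp7 was at -0.016 with limma voom, -0.011 with the surrogate variable and -0.026 without the 3 libraries. Bmi1 was at 0.0033 with limma voom and 0.16 without the 3 libraries, Cbx7 at 2.9e-05 with the surrogate variable and 0.019 without them, and Rybp at 0.068 without them. The Ezh2 to Ezh1 ratio ranged from 0.10 to 0.43 and the Rbbp4 to Rbbp7 ratio from -0.089 to -0.059 with a library left out. No paired analysis was possible because no number occurs in both genotypes. In the fit with genotype alone, an increase as large as that of Ezh2 lies within the intervals of Ezh1, Suz12, Jarid2 and Cbx7, and with the covariate it does not, on the same libraries (a decrease of that size still lies within that of Cbx7). The covariate was chosen after the data had been seen. With 1 surrogate variable, chosen at the outset, such an increase lies within the intervals of Ezh1 (-0.12 to 0.56), Suz12 (-0.02 to 0.65) and Jarid2 (-0.17 to 0.65).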
